A study of Mus musculus with 10 samples.

Results

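Keratins are the intermediate filament proteins of epithelial cells. The genes examined here are the 53 protein-coding genes of GENCODE M21, of 21938 protein-coding genes in all, whose name is Krt followed directly by a number. The keratin-associated proteins of hair, named Krtap, carry a different name and were kept apart as a comparison family. A type I keratin pairs with a type II keratin to build a filament, and which pair a cell makes marks its type. In the prostate, luminal secretory cells make Krt8 with Krt18, and Krt19, while basal cells make Krt5 with Krt14. Krt6a, Krt6b, Krt16 and Krt17 are known for being switched on in wounded or stressed epidermis, and most remaining members belong to hair and skin.

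Chromatin accessibility was measured by ATAC-seq, in which a transposase cuts open DNA, in Myc-CaP cells, a mouse prostate cancer line from male FVB/NJ animals that carries a Myc transgene. The groups, all kept for 48 h, were untreated cells (Ctrl), oxaliplatin at 2 µM (Oxali), cisplatin at 2 µM (Cispl), IFNγ with 1000 pg as the labelled amount (IFNγ), and oxaliplatin with IFNγ at those amounts (Oxali + IFNγ). Each group had 2 libraries, which the authors pooled before calling peaks, so each group gave 1 list of peaks, and the values come from 5 lists of 1 cell line. The 4 comparisons with Ctrl share that control list. No value given has a replicate error and no test between groups was possible. Intervals are 95% Poisson intervals for a pileup, or exact conditional intervals for a ratio of pileups, and cover counting error only. They treat the reads counted as independent.

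A region was counted for a keratin when it overlapped the gene extended by 5 kb on either side, and it was called strong at q of at most 0.01. Over the 5 lists, 136 merged regions in keratin windows were strong in at least 1 list, of 203916 such regions in the genome. All 53 keratins had at least 1 of them, and 29 of the 136 lay in the windows of more than 1 keratin, so neighbouring genes share part of their evidence. The level of a region is its highest pileup of reads divided by the genome background of its list, which makes lists of different depth comparable and does not depend on gene length. The genome background was 12.1 in Ctrl, 11.3 under Oxali, 13.8 under Cispl, 9.62 under IFNγ and 12.9 under Oxali + IFNγ, and against that background the lowest pileup that could be called was a level of 1.73, 1.77, 1.89, 1.87 and 1.70. The lists were not cut at the same p: the lowest −log10 p was 2.99 in Cispl and 2.00 in each other list. A call in Cispl thus had to pass a stricter cut. Where reads piled up all around a region the local background was higher and so was the level needed for a call. Strong regions numbered between 113014 and 171785 per list.

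The cell type was checked at start sites of prostate luminal marker genes. Hoxb13, Foxa1 and Pbsn had a strong region within 1 kb of an annotated start in every list. Open start sites were not limited to this cell type: of the markers of other cells, Col1a1, Col1a2 and Pdgfra were called in every list, Ptprc in the 3 lists that contained a platinum drug, Pecam1 in Ctrl, Cispl and Oxali + IFNγ, and Cd3e, Dcn and Cdh5 in none. The part of other cells in the results was not tested.

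The sequences that carry the results are given first. The promoters of the luminal pair Krt8 and Krt18 are shown because the first gene had one of the most open start sites of the family and the second had almost no signal at its start. They span 250 bases before to 50 bases after the RefSeq start (GRCm38.p6, 5′ to 3′ along the gene), and capitals mark the letters TATAAA or their reverse complement, where the matches overlap in Krt8.
Krt8 promoter, chr15:102004293-102004592, minus strand: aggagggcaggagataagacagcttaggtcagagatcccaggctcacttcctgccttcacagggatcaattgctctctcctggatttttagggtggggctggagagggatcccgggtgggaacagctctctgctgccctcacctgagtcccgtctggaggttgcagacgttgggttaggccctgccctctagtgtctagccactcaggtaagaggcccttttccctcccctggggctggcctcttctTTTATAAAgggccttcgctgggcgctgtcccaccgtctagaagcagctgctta
Krt18 promoter, chr15:102027966-102028265, plus strand: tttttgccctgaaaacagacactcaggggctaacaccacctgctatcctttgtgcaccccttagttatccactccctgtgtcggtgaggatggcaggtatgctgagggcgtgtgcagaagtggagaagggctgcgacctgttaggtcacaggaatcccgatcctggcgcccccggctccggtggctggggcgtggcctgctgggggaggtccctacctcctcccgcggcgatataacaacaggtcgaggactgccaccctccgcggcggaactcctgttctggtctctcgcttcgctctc

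The next windows of 201 bases were centred on the summit in the list where the region was highest, because these are regions whose level was higher than Ctrl in at least 1 list with a platinum drug, together with the summit at the Krt8 start for contrast. They were read from the plus strand of GRCm38, the build called mm10 by the authors. Capitals mark TGANTCA, the letters that AP-1 factors are known to bind, except for the capitals CCGCCC in the Krt5 window, which are GGGCGG on the other strand, and the TTCNNNGAA match in the window upstream of Krt6a.
Krt8 start-site region, chr15:102005399-102005599: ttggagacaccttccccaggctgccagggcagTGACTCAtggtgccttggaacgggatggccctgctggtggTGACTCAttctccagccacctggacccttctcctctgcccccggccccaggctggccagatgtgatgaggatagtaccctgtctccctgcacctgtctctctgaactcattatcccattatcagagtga
Krt16 start-site region, chr11:100249195-100249395: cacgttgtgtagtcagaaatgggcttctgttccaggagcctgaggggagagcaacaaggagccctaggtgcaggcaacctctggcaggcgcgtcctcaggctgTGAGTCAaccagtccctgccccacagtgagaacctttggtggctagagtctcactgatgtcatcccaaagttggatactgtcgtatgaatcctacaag
Krt5 upstream region, chr15:101715943-101716143: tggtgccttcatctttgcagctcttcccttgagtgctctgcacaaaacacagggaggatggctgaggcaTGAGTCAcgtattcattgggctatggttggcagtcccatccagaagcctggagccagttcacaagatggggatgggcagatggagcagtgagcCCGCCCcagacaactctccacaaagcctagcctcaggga
Krt14 start-site region, chr11:100207646-100207846: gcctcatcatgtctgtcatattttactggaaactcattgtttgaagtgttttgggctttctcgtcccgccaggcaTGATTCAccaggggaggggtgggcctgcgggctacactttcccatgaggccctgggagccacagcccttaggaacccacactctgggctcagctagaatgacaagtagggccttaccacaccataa
Krt6a start-site region, chr15:101694272-101694472: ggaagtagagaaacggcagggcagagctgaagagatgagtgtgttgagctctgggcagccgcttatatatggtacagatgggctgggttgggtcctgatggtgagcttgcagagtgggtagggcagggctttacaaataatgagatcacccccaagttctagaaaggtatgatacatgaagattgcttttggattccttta
Krt6a upstream region, chr15:101695685-101695885: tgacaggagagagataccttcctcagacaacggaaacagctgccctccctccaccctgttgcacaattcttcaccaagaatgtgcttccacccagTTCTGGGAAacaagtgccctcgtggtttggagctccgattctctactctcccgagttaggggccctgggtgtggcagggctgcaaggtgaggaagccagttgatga
Region between Krt15 and Krt19, chr11:100139500-100139700: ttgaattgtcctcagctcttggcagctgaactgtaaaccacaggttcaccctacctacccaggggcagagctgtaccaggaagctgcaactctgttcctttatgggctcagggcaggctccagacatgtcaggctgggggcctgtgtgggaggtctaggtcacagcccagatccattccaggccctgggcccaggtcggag

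The RefSeq table used held 37 promoters of 36 keratins, with Krt13 entered at a pair of starts and Krt14 at a start inside the gene, and 17 keratins were not matched, among them Krt16, Krt17, Krt19, Krt6a and Krt6b. TATAAA on either strand was present in 19 of 37 keratin promoters (51.4%) and in 13.6% of all 32851 promoters. GGGCGG, the letters of the Sp1 site, was present in 2 of 37 (5.41%) against 35.7% of all promoters, and 1 of those 2 was Krt7, with 4 matches. The TATA letters were thus more frequent in keratin promoters than in promoters at large and the GC letters less frequent, which counts letters and not bound factors. TGANTCA was present in 2 of 37 keratin promoters, both of Krt13, against 7.81% of all, and TTCNNNGAA, the letters of STAT sites, in 4 of 37 against 8.30%. In the 201-base summit windows TGANTCA was found at 37 of 136 keratin regions (27.2%) against 21.3% of all strong regions, and at 6 of the 19 keratin regions whose level was at least 1.5-fold higher in Oxali than in Ctrl after the median of all regions was subtracted (31.6%) against 31.0% of all such regions. The Krt8 window printed above, where the platinum lists were lower, holds 2 matches, and the Krt16 window 1. TTCNNNGAA was found in 6 of 136 keratin windows and 6.06% of all windows, GGGCGG in 12 of 136 and 8.59%, and TATAAA in 4 of 136 and 8.22%.

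Most keratin start sites were not open. A strong region within 1 kb of an annotated start was found for 16 of 53 keratins in Ctrl, where 60.4% of all protein-coding genes had one. The count was 17 under Oxali (all genes 63%), 17 under Cispl (63.8%), 16 under IFNγ (59.7%) and 18 under Oxali + IFNγ (64.3%), so keratins were near 30.2 to 34.0% in each list. The same 11 keratins were called in all 5 lists: Krt10, Krt19, Krt14, Krt16, Krt80, Krt86, Krt6b, Krt6a, Krt4, Krt79 and Krt8. The Krt10 region lay near an annotated start inside the gene, away from its 5′ end. Another 10 were called in at least 1 list and 32 in none, and among the 32 were Krt5, Krt7, Krt15 and Krt17. Of the keratin-associated protein genes, 6 to 10 of 57 had an open start in each list. The 12 partner genes, which code for desmosome plaque proteins, plakins and other proteins that hold or shape keratin filaments, differed from both: 10 of 12 had an open start in every list, and Dsp and Pkp1 in none.

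The 27 type I genes lie in a row on chromosome 11 and the 26 type II genes on chromosome 15, each row taken here from 5 kb before its first to 5 kb after its last keratin. The type I span of 1047 kb, at chr11:99227761-100274871, held 109 strong regions in Ctrl, or 10.4 per 100 kb. The type II span of 695 kb, at chr15:101342444-102037027, held 84, or 12.1 per 100 kb, against 4.34 per 100 kb of the genome. Within the type I row the stretch from Krt40 to Krt33a, where 23 keratin-associated protein genes and no keratin lie, held 5.98 per 100 kb in Ctrl. Counts in the other lists were 111 to 145 for type I and 83 to 101 for type II, and the genome held 4.15 to 6.30 per 100 kb in those lists.

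**Figure D1:**
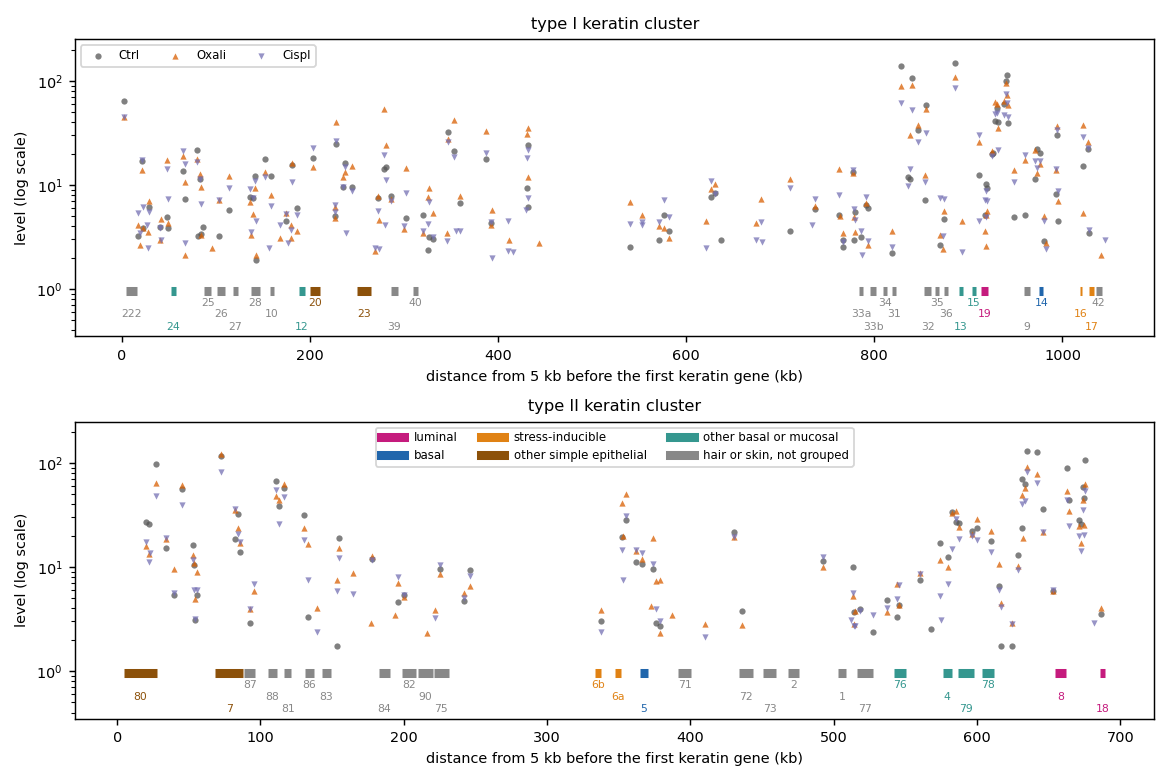
Level of every region strong in at least 1 list (log scale) against distance along the type I and the type II keratin rows in kb, for the Ctrl, Oxali and Cispl lists, where a list has a call; bars under the points give the genes, coloured by group, with the number in their name. In the type I row high points lie near Krt31, near Krt13 and between Krt19 and Krt9, and in the type II row near Krt80 and Krt7 and between Krt78 and Krt8, and points are sparser towards Krt33a in the stretch after Krt40.

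The strongest keratin regions were not all at start sites. The regions of Krt13 and Krt31 given next were chosen after their values were seen. The highest level, with an interval of 143 to 157 in Ctrl, lay 3050 bp past the end of Krt13, a mucosal keratin, where Oxali had 109, Cispl 85.0, IFNγ 125 and Oxali + IFNγ 94.4. The next, 4791 bp upstream of the hair keratin Krt31 at chr11:100055342-100056689, had 139, 90.2, 61.8, 116 and 74.8 in the order Ctrl, Oxali, Cispl, IFNγ and Oxali + IFNγ, which is kept wherever 5 levels are given without names. An exon region of Krt7, a keratin of ducts and glands, at chr15:101413808-101416029, had 116, 121, 82.0, 98.4 and 101, and began more than 1 kb past the nearest annotated start, which is why Krt7 was not counted as open. The Krt80 start site, at chr15:101368561-101370875, had 97.9, 64.0, 48.5, 69.96 and 54.1. In all 4 of these regions Cispl had the lowest level, and at Krt13, Krt31 and Krt80 Oxali was also below Ctrl. An intron region of Krt7, with 18.8, 35.3, 36.3, 13.2 and 35.5, was instead higher in the 3 platinum lists.

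Of the 136 regions, 74 (54.4%) were called in all 5 lists, against 41.9% of all strong regions, and 19 (14.0%) were called in 1 list only, against 21.2% of all strong regions.

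Among the luminal keratins, Krt8 had the most open start site of the luminal and basal genes: the region at chr15:102004292-102006162 had a level of 88.8 in Ctrl (interval 83.6 to 94.3), 53.7 under Oxali (49.5 to 58.1), 44.4 under Cispl (41.0 to 48.1), 83.0 under IFNγ (77.3 to 88.9) and 60.3 under Oxali + IFNγ (56.1 to 64.7). The 3 platinum lists were below Ctrl with intervals that did not overlap it, and IFNγ was not. The ratio to Ctrl was 0.605 (0.546 to 0.668) under Oxali, 0.5 (0.452 to 0.553) under Cispl, 0.934 (0.851 to 1.02) under IFNγ and 0.679 (0.618 to 0.745) under Oxali + IFNγ. Regions of high control level were lower in the treated lists at large. Over all regions called in both lists with a control level of at least 50, the median log2 change was -0.42 under Oxali, -0.65 under Cispl, -0.50 under IFNγ and -0.79 under Oxali + IFNγ. The Krt8 start had -0.73, -1.0, -0.10 and -0.56 on the same scale, which was below the lower quartile of such regions in Oxali (-0.61) and Cispl (-0.83), and above the upper quartile in IFNγ (-0.30). A second Krt8 region, 1925 bp upstream, had 44.5 in Ctrl, 34.9 under Oxali, 24.8 under Cispl, 59.9 under IFNγ and 37.3 under Oxali + IFNγ, with IFNγ highest and Cispl lowest.

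Krt18, the type I partner of Krt8, showed a different picture. No strong region covered its start, and the only one within 1 kb, at chr15:102028948-102029166 inside the gene, had a level of 3.54 in Ctrl and 4.08 in Oxali and was not called in Cispl, IFNγ or Oxali + IFNγ, where a level of 1.89, 1.87 and 1.70 would have sufficed. The promoter printed above holds none of the 4 motifs searched. No stretch of 100 bp or more around the Krt18 start had a copy elsewhere in the genome at 98% identity or more, and for Krt8 such a copy, of 376 bp, lies on chromosome 7 and matches the gene side of the start, outside the start-site region.

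Krt19, a luminal type I keratin without a fixed partner, had several weaker regions at its starts. The main one, at chr11:100145539-100146542, had 10.3 in Ctrl, 5.15 under Oxali, 8.65 under Cispl, 9.56 under IFNγ and 6.74 under Oxali + IFNγ. The ratio to Ctrl was 0.5 in Oxali (0.360 to 0.688) and 0.840 in Cispl, whose interval (0.648 to 1.09) contained 1. A neighbour at chr11:100147597-100148081 had 9.39, 5.59, 6.98, 14.4 and 6.04, again lower in Oxali and highest in IFNγ, and an upstream region stayed between 18.9 and 22.6. The region between Krt19 and Krt15, a basal keratin, was instead higher in the platinum lists. At chr11:100138909-100140069 it had 12.4 in Ctrl (10.5 to 14.5), 25.9 under Oxali (23.0 to 29.1), 29.9 under Cispl (27.1 to 33.0), 12.4 under IFNγ (10.2 to 14.8) and 26.6 under Oxali + IFNγ (23.9 to 29.6). The 3 platinum lists lay together at 2.1, 2.42 and 2.16 times the Ctrl level and IFNγ lay at it. Regions with a control level of 5 to 20 had a median log2 change of 0.24 in Oxali, 0.20 in Cispl and 0.24 in Oxali + IFNγ, with upper quartiles of 0.70, 0.57 and 0.73, and this region had 1.07, 1.28 and 1.11.

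**Figure D2:**
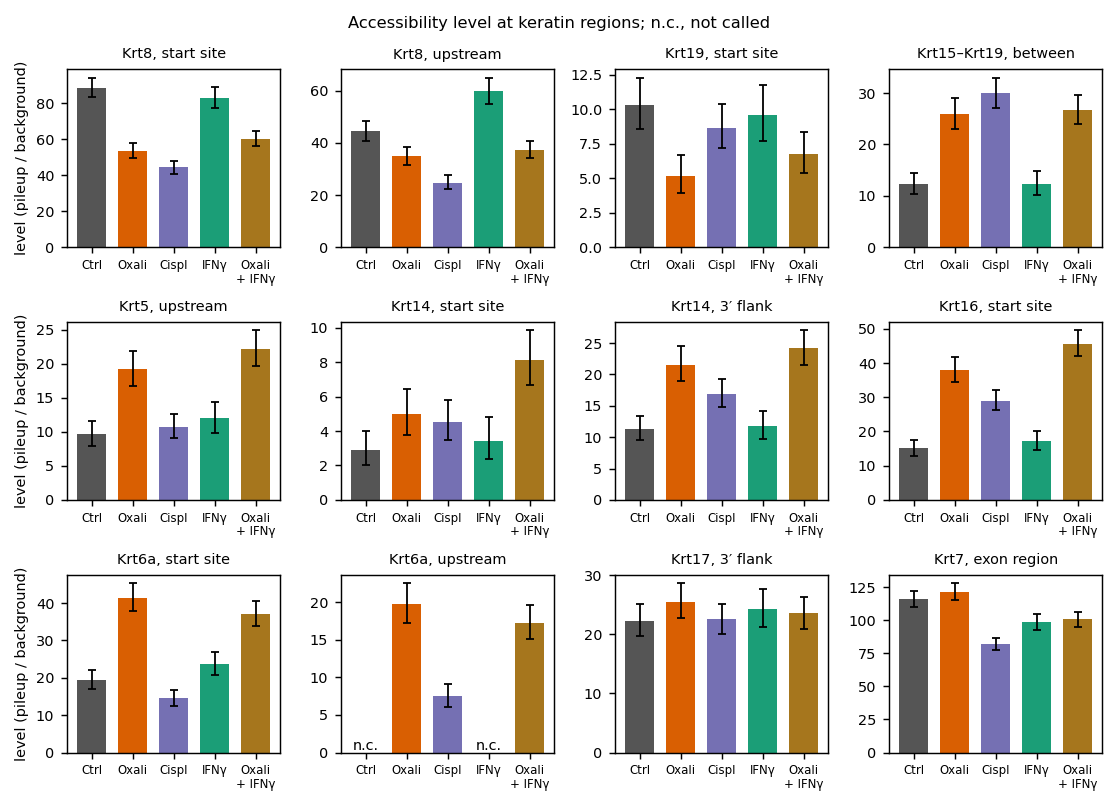
Level at 12 keratin regions in each of the 5 lists (1 pooled list per group, no replicates), as bars from 0 with 95% Poisson intervals for counting error; n.c. marks a list with no call. The Krt8 start was highest in Ctrl and the Krt8 upstream region in IFNγ. The regions of Krt5, Krt16 and Krt6a and that between Krt15 and Krt19 were higher in Oxali and Oxali + IFNγ than in Ctrl, while the level at Krt17 stayed between 22.2 and 25.6.

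Krt5 had no strong region at its start in any list. Its upstream region, 2784 bp before the gene at chr15:101715682-101716389, had 9.64 in Ctrl (7.97 to 11.6), 19.2 under Oxali (16.7 to 21.9), 10.8 under Cispl (9.09 to 12.6), 11.95 under IFNγ (9.87 to 14.3) and 22.2 under Oxali + IFNγ (19.7 to 24.9). Both oxaliplatin lists were above the other 3, and the ratio of Oxali to Ctrl was 1.99 (1.58 to 2.51) where that of Cispl was 1.12 (0.870 to 1.43). A smaller region next to it, at 4.26 in Oxali, 2.60 in IFNγ and 4.57 in Oxali + IFNγ, was not called in Ctrl or Cispl. The other Krt5 regions were 1 past its end, with 11.3, 14.3, 14.8, 6.65 and 17.9, and 1 in an exon, with 10.6, 11.98, 13.5, 8.73 and 13.2, where IFNγ was lowest.

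The Krt14 start-site region, at chr11:100207500-100207911, had 2.88 in Ctrl, 4.97 under Oxali, 4.51 under Cispl, 3.43 under IFNγ and 8.13 under Oxali + IFNγ. The last value was 2.82 times Ctrl (1.91 to 4.26) and 1.64 times Oxali (1.17 to 2.31). A region 4061 bp past the end of Krt14 had 11.4, 21.6, 16.9, 11.9 and 24.2, and was 1.90 times Ctrl in Oxali (1.53 to 2.35) and 1.49 times in Cispl (1.2 to 1.85). Elsewhere at Krt14 the order differed: the region 2712 bp past the end had 22.2, 13.1, 14.5, 12.6 and 14.9, and that in an intron had 20.1, 15.7, 16.9, 12.1 and 13.1, with every treated list below Ctrl in both. The basal group held 9 regions compared in Oxali, of which 1 was raised and 2 were lowered by 1.5-fold relative to all regions, where 23.4% of all regions were raised and 26.5% lowered.

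Of the stress-inducible keratins, Krt16 was higher in all 3 platinum lists and Krt6a in the oxaliplatin lists. The Krt16 start site, at chr11:100248772-100249721, had 15.1 in Ctrl (13.0 to 17.4), 38.0 under Oxali (34.5 to 41.8), 29.0 under Cispl (26.2 to 31.99), 17.3 under IFNγ (14.7 to 20.1) and 45.7 under Oxali + IFNγ (42.1 to 49.5). The ratio to Ctrl was 2.52 in Oxali (2.11 to 3.01), 1.92 in Cispl (1.61 to 2.30) and 3.03 in Oxali + IFNγ (2.56 to 3.6), and in IFNγ the interval (0.922 to 1.42) contained 1. Krt6a pairs with Krt16 in filaments. Its start site, at chr15:101693943-101695204, had 19.4 in Ctrl (17.0 to 22.0), 41.4 under Oxali (37.8 to 45.4), 14.5 under Cispl (12.6 to 16.7), 23.6 under IFNγ (20.6 to 26.9) and 37.2 under Oxali + IFNγ (33.9 to 40.7). Oxali was thus 2.14 times Ctrl (1.83 to 2.51) and Cispl 0.751 times (0.619 to 0.911). A region 2750 bp upstream had 28.5, 50.2, 30.9, 32.1 and 52.7, with both oxaliplatin lists apart from the other 3.

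Between these Krt6a regions, 1135 bp upstream at chr15:101695442-101696017, a region had 19.8 in Oxali (17.3 to 22.6), 7.49 in Cispl (6.11 to 9.08) and 17.3 in Oxali + IFNγ (15.1 to 19.7), and was not called in Ctrl or IFNγ. The local background beside it would have required a level of 4.53 in Ctrl and 5.82 in IFNγ for a call. The whole neighbourhood of Krt6a carried more reads in the oxaliplatin lists: the local background at the start site was 3.30 times the genome background in Ctrl, 7.88 under Oxali, 3.89 under Cispl, 4.20 under IFNγ and 8.17 under Oxali + IFNγ. The deposited fold divides by that local background and was 5.75 in Ctrl and 5.21 in Oxali, so on the deposited scale the start site of Krt6a was not higher in Oxali. The deposited fold at the Krt16 start was 12.8 in Ctrl and 14.8 in Oxali, and that of the Krt5 upstream region 8.98 and 10.9. Against the median of all regions on the deposited scale, every change above the median at these 3 regions in a platinum list fell under it. The relative log2 change was then -0.45 in Oxali and -0.71 in Oxali + IFNγ for the Krt6a start, -0.096 in Oxali, -0.026 in Cispl and -0.043 in Oxali + IFNγ for the Krt16 start, and -0.029 in Oxali and -0.0020 in Oxali + IFNγ for the Krt5 upstream region.

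Krt17 had no open start, and its strongest region, 1080 bp past its end, had 22.2 in Ctrl, 25.6 under Oxali, 22.5 under Cispl, 24.3 under IFNγ and 23.5 under Oxali + IFNγ. The ratio of Oxali to Ctrl there was 1.15 (0.970 to 1.36). Relative to the median of all regions, its log2 change by level was -0.27 in Oxali, -0.45 in Cispl and -0.44 in Oxali + IFNγ. On the deposited fold it was -0.76, -0.63 and -1.03, so the region was lower in the platinum lists on that scale. The single Krt6b region had 3.05, 3.90, 2.40, 3.53 and 3.41, and all 278 bp of it match the Krt6a start at 99.3% identity, so its reads may belong to either gene.

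The same dose and time allow Oxali to be set against Cispl directly, as 1 pair of platinum complexes that carry different ligands. Oxali was above Cispl by 2.85 times at the Krt6a start (2.41 to 3.38), by 2.64 times at the Krt6a upstream region (2.08 to 3.37) and by 1.78 times upstream of Krt5 (1.44 to 2.21). At the start site of Krt4, a mucosal keratin that pairs with Krt13, the levels were 34.2 in Ctrl, 33.4 under Oxali, 14.8 under Cispl, 36.4 under IFNγ and 38.0 under Oxali + IFNγ, and Oxali was 2.25 times Cispl (1.89 to 2.68). A region 1276 bp past the end of Krt4 had 17.0, 11.8, 5.23, 16.2 and 14.5, with Cispl alone far below the rest. At the Krt16 start Oxali was 1.31 times Cispl (1.14 to 1.50) and at the Krt8 start 1.21 times (1.08 to 1.36). Below 1 were the Krt19 start, at 0.595 (0.427 to 0.821), and the region between Krt15 and Krt19, at 0.865 (0.742 to 1.01), whose interval contained 1, as did that of the Krt14 start (0.754 to 1.61). Over the 118 keratin regions compared, 21 were at least 1.5-fold higher and 18 at least 1.5-fold lower in Oxali, or 17.8% and 15.3%, after the median of all regions (0.04, log2) was subtracted, against 13.3% and 19.1% of all regions. On the deposited fold 9 keratin regions were higher and 11 lower, with no share of all regions computed on that scale. The deposited fold at the Krt6a start was 5.21 in Oxali and 3.69 in Cispl, a smaller difference than that of the levels. By level, 5 of the 8 stress-inducible regions were higher and 1 was lower.

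**Figure D3:**
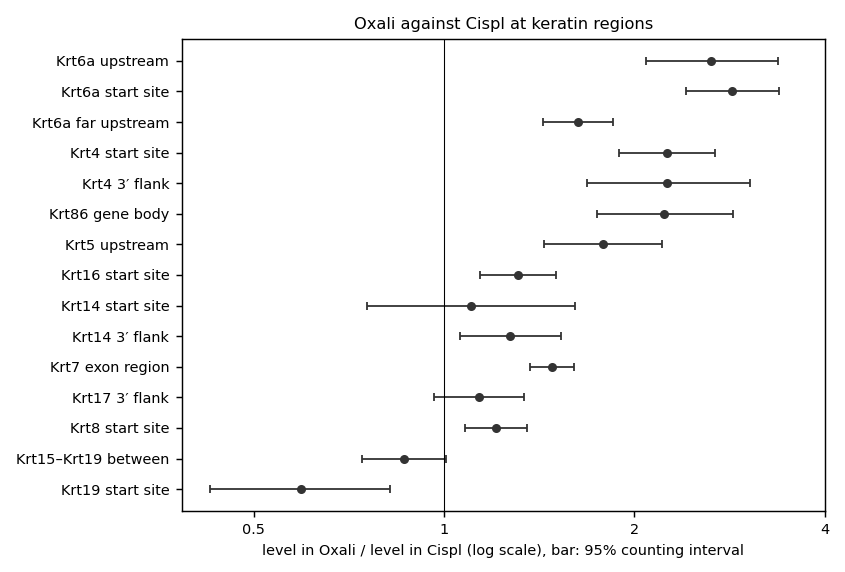
Ratio of the level in Oxali to that in Cispl (log scale) at 15 keratin regions that both lists call, with 95% intervals for counting error; the line marks equal levels. The Krt6a start lies furthest to the right at 2.85 and the Krt19 start furthest to the left at 0.595; the levels are over the genome background, and on the deposited fold the Krt6a start had 5.21 in Oxali and 3.69 in Cispl.

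Oxali + IFNγ was also compared with Oxali alone. Over 124 keratin regions the median log2 change of Oxali + IFNγ against Oxali was 0.11, and 0.04 over all regions. After subtracting the latter, 19 keratin regions were at least 1.5-fold higher and 9 lower (15.3% and 7.26%), against 11.3% and 8.8% of all regions. The Krt16 start was 1.2 times Oxali (1.06 to 1.37), the Krt8 start 1.12 times (1.01 to 1.25), the Krt6a start 0.897 times (0.788 to 1.02) and the Krt5 upstream region 1.16 times (0.965 to 1.39). The epidermal keratins had 14 regions in this comparison, of which 8 were higher, all in windows of Krt1, Krt42 and Krt77 at levels of 2.79 to 6.58 in Oxali + IFNγ. Most of these 8 had no call in Oxali, so their change was measured against its lowest callable level of 1.77. The 1 lower region lay near an annotated start inside Krt10, a keratin of upper epidermal layers, and not at the gene's 5′ end. It was at 0.633 times Oxali (0.454 to 0.879).

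A region was counted as gained when it was strong in a treated list and overlapped no region of the control list. In Oxali 23 of 53 keratins had one, or 43.4%, against 53.2% of all genes. In Cispl it was 25 (47.2%, all genes 61.6%), in IFNγ 13 (24.5%, all genes 28.9%) and in Oxali + IFNγ 28 (52.8%, all genes 59.3%). Keratin windows are short, 16.6 kb at the median against 27.4 kb for all genes, and among the 12542 genes whose windows were no longer than the longest keratin window the shares with gains were 36.8%, 45.5%, 18.3% and 43.8%. Lost regions, called in Ctrl and absent from the treated list, touched 4 keratins under Oxali (7.55%, all genes 22.3%), 3 under Cispl (5.66%, all genes 16.1%), 13 under IFNγ (24.5%, all genes 33.3%) and 4 under Oxali + IFNγ (7.55%, all genes 19.5%). Among the genes with short windows the shares with losses were 12.7%, 9.11%, 18.5% and 10.4%, so the keratin share was above theirs in IFNγ and below it in the other 3 lists. Of the keratin-associated protein genes 14, 17, 7 and 17 of 57 had gains, and of the partner genes 8, 10, 4 and 7 of 12, in the same order of treatments. Of the gained regions, 8 of 20 under Oxali, 10 of 22 under Cispl, 4 of 12 under IFNγ and 7 of 32 under Oxali + IFNγ lay within 500 bp of a control region. With the 100000 regions of lowest p from each list, Oxali had 8 keratins with gains and 17 with losses, and Cispl 7 and 13. IFNγ had 12 and 13, and Oxali + IFNγ 10 and 11. Gains thus outnumbered losses in the platinum lists with the full lists but not at equal numbers of regions, and IFNγ moved little. At q of at most 1e-05 the gains were 14, 16, 8 and 22. The shares of all genes were not computed at either setting, so these counts cannot be set against genes at large.

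**Figure D4:**
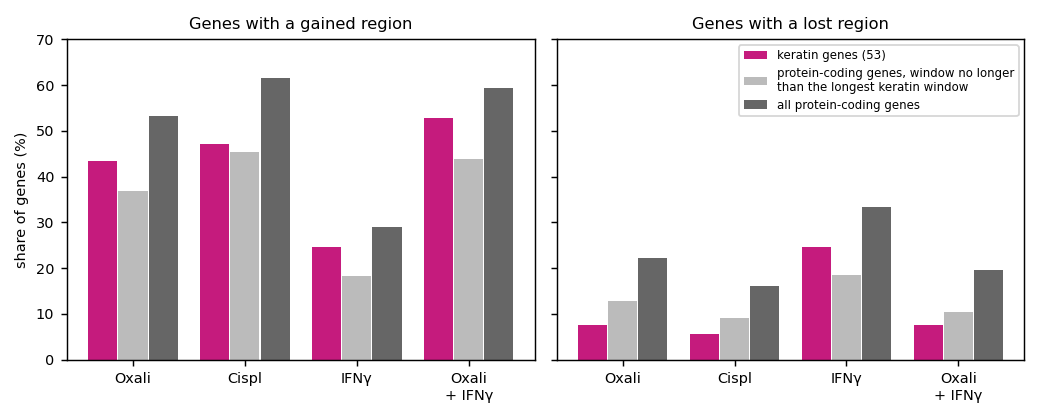
Share of genes (%) with at least 1 gained and at least 1 lost region against Ctrl in each treated list, for the 53 keratin genes, for protein-coding genes with a window no longer than the longest keratin window, and for all protein-coding genes. The keratin bar stands below that of all genes in every list, and above that of genes with short windows for gains in each list and for losses in IFNγ.

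Changes in level were measured on regions strong in Ctrl or in the treated list. The median log2 change over keratin regions was 0.17 under Oxali (109 regions), 0.12 under Cispl (112), -0.04 under IFNγ (100) and 0.35 under Oxali + IFNγ (122). Over all regions it was 0.47, 0.47, -0.25 and 0.52, and the changes that follow are relative to these. In Oxali 19 keratin regions were raised and 42 lowered by 1.5-fold (17.4% and 38.5%), against 23.4% and 26.5% of all regions. In Cispl it was 14 and 43 (12.5% and 38.4%, all regions 21.7% and 25.1%), in IFNγ 21 and 10 (21% and 10%, all regions 18.3% and 10.4%), and in Oxali + IFNγ 24 and 41 (19.7% and 33.6%, all regions 23.7% and 26.5%). Without subtracting the median of all regions the split was 36 raised and 17 lowered under Oxali, 34 and 21 under Cispl, 13 and 17 under IFNγ and 50 and 19 under Oxali + IFNγ, so the direction of the majority depends on that reference in every list. The shares of all regions were not computed without that subtraction. The keratin-associated protein genes had medians of 0.78 under Oxali, 0.51 under Cispl, -0.10 under IFNγ and 0.65 under Oxali + IFNγ over 28 to 37 regions, and the partner genes 0.08, -0.01, -0.23 and 0.11 over 71 to 89.

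With changes relative to the median of all regions, the group median in Oxali, where 23.4% of all regions were raised and 26.5% lowered, was -0.82 for the 9 luminal regions, of which 5 were lowered and 1 raised, and 0.49 for the 8 stress-inducible regions, of which 4 were raised and 1 lowered. The basal group stood at 0.20 and the hair and skin group at -0.32 over 53 regions, of which 10 were raised and 21 lowered. In Cispl the luminal median was -0.48, the stress-inducible -0.37 and the basal -0.10. Compared directly, Oxali stood above Cispl by a relative median of 0.66 over the 8 stress-inducible regions. In IFNγ the medians were 0.20, 0.44 and -0.03, and none of the 6 stress-inducible regions was raised or lowered (all regions 18.3% and 10.4%). In Oxali + IFNγ they were -0.88, 0.39 and 0.24, with 7 of 9 luminal regions lowered (all regions 26.5%). By position, the relative median in Oxali, against the same 23.4% and 26.5%, was -0.56 at start sites (25 regions, 5 raised and 12 lowered), -0.38 in gene bodies (30 regions, 4 and 11) and -0.22 in flanks (54 regions, 10 and 19). Each group has few regions and some are shared between neighbouring genes, so these medians are descriptions. They are changes in level over the genome background, and 3 of the stress-inducible regions belong to Krt6a. On the deposited fold, the 1 region followed per stress-inducible gene had relative changes in Oxali of -0.45 (Krt6a), 0.035 (Krt6b), -0.096 (Krt16) and -0.76 (Krt17). Group medians were not computed on that scale.

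**Figure D5:**
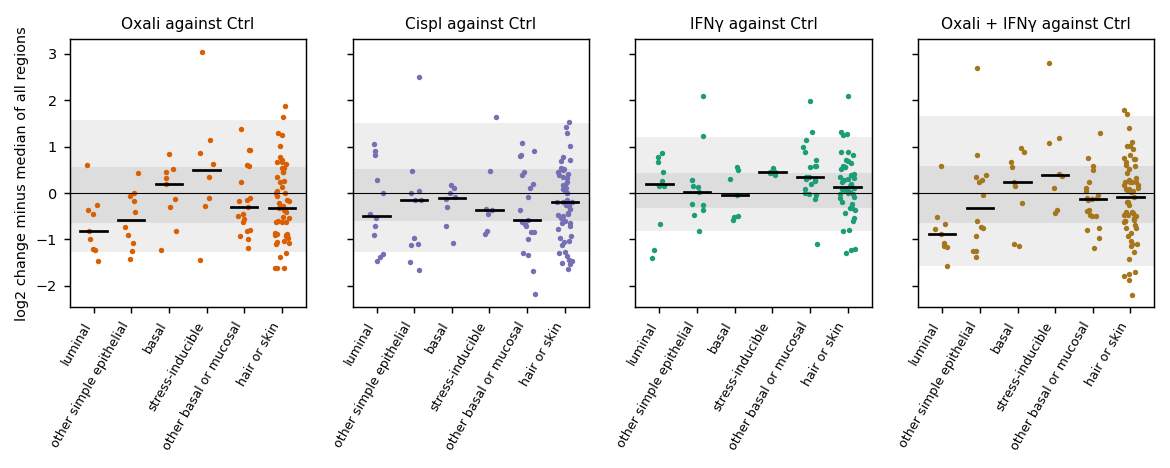
Log2 change against Ctrl minus the median of all regions, for each keratin region by group in each treated list; black bars are group medians, and the bands hold the middle 50% (dark) and 90% (light) of all regions in the genome. A region in windows of 2 groups is drawn in both, and Krt222, Krt88 and Krt90 are left out. The stress-inducible median is 0.49 in Oxali and -0.37 in Cispl. Changes are in level over the genome background, and on the deposited fold the Krt6a, Krt16 and Krt17 regions followed were under the median of all regions in Oxali.

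With uncalled lists set to the lowest callable level, hair keratins followed the Krt6a upstream region in the order of changes in Oxali, an order that rests on that floor because Ctrl was not called at Krt6a. In an exon of Krt86, a hair shaft keratin, a region at chr15:101475003-101475956 had 3.29 in Ctrl, 16.7 under Oxali, 7.49 under Cispl, 2.91 under IFNγ and 15.3 under Oxali + IFNγ, or 5.06 times Ctrl in Oxali (3.58 to 7.31). A region 3765 bp upstream of Krt83 had 1.73, 7.45, 5.89, 2.18 and 8.52, or 4.31 times in Oxali (2.65 to 7.32). For comparison, all regions with a control level under 5 had a median log2 change of 0.57 in Oxali with an upper quartile of 1.08, and these had 2.34 and 2.11. Krt9, the keratin of palms and soles, and Krt24 were chosen after their values were seen. The Krt9 exon region had 5.19 in Ctrl, 17.2 under Oxali, 19.2 under Cispl and 12.3 under Oxali + IFNγ with no call under IFNγ, and a region 3527 bp past the end of Krt24 had 4.86, 17.4, 14.2, 4.05 and 17.0. Both were higher in all 3 platinum lists than in Ctrl.

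Among the lowest changes in Oxali or Oxali + IFNγ, a region between Krt33a and Krt33b, hair shaft keratins, had 5.93 in Ctrl, 2.66 under Oxali, 2.91 under Cispl, 7.80 under IFNγ and 2.32 under Oxali + IFNγ. Small regions of 3.95 in Ctrl past the end of Krt25, a root sheath keratin, and in an exon of the skin keratin Krt77 were not called in Oxali, and the Krt77 region had 5.81 in Oxali + IFNγ. A region past the end of Krt33a, with 5.44 in Ctrl, 3.55 in Oxali and 4.58 in Cispl, was called in neither list with IFNγ. The region near the annotated start inside Krt10 had 12.2, 8.07, 6.25, 8.94 and 5.11, lowest in Oxali + IFNγ at 0.419 times Ctrl (0.309 to 0.564).

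In Cispl the 3 highest changes, each against a Ctrl without a call that was set to 1.73, were at the upstream region of Krt6a, a region of 6.90 at the Krt87 start that Ctrl did not call, and a region near a Krt80 start of 13.6. The last was not called in Ctrl, Oxali or IFNγ, but the local background beside it would have required a level of 11.8 in Ctrl. Of the regions called in both lists, that of Krt9 went from 5.19 to 19.2, so the order in Cispl too rests on the floor. The lowest were the 2 Krt4 regions already given and a smaller Krt80 region of 25.7 in Ctrl and 11.2 in Cispl. In IFNγ the highest changes were at weak regions not called in Ctrl, of 6.24 in an intron of Krt7 and of 5.72 past the end of Krt4, and one upstream of Krt78 at 3.64 against 1.73. The first of these would have needed 4.20 and the second 2.72 for a call in Ctrl. Regions of 5.85 past the end of Krt8, of 5.44 at Krt33a and of 5.19 at a Krt19 start in Ctrl were not called in IFNγ, where 1.87, 1.87 and 3.01 would have sufficed.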

How the data were processed

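ATAC-seq was run on 10 libraries of Myc-CaP cells in 5 groups of 2. Per the study's methods and processing notes, reads were aligned to mm10 with Bowtie2 2.2.8 and the authors pooled the libraries of a group and called peaks with MACS2 2.1.0. The deposited fold is the ratio of pileup plus 1 to local background plus 1 at each summit, and the deposited −log10 p and −log10 q are MACS2's Poisson values as the authors gave them. The whole-number pileup was recovered from both for 100% of summits.

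Overlapping peaks of the 5 lists were merged. The level is the highest pileup of a region over the genome background of its list, which was also the measure of depth (79.2 to 113% of Ctrl). Changes used regions strong in at least 1 of the 2 lists compared, with an uncalled list set to its lowest callable level, and a region was raised or lowered at 1.5-fold relative to the median of all regions. With 1 list per group there was no test, and intervals cover counting error only. Groups came from the agent given in the sample labels, each list's treatment from its name, and 0 columns were left unmapped.

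Named were the luminal, basal and stress-inducible keratins, Krt7 and Krt15, and for each treatment the 3 highest and 3 lowest keratin regions by log2 change, with exceptions named as such. The members, groups and lists were chosen with earlier results of these data known. Alternatives were stricter thresholds, other overlap rules, gene bodies only, pileup and background scaled to the shallowest list's genome background, equal ranks, and the deposited fold. Scripts were tested on simulated data. Sequences came from RefSeq (GRCm38.p6) and GRCm38, and copies were searched with blastn 2.17.0. Tools were python 3.11.15, numpy 2.4.6, scipy 1.17.1 and pandas 2.3.3. Some marker genes that were checked are not reported here.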

Additional observations from a re-analysis of the deposited data

How the results depend on the processing

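No paired analysis was possible because the libraries of a group were pooled before peaks were called. For the same reason no replicate was left out. Of 177 alternatives to the counts and medians, 110 left a count within 1.5 times its value or a median within its interval over regions. Some of those medians, all near 0, turned sign: Oxali against Ctrl was -0.028 on the deposited fold and -0.035 in gene bodies, Cispl against Ctrl -0.013 in regions called in both lists, and Oxali against Cispl -0.024 on the deposited fold, -0.0015 in gene bodies and -0.042 in regions strong in any of the 5 lists. Counts of keratins with an open start site, 16 to 18 per list, were 14 to 18 at q of at most 1e-05 and 13 to 15 with the first start of each gene only.

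Keratins with gained regions numbered 14 in Oxali, 16 in Cispl and 8 in IFNγ at q of at most 1e-05, and 8, 7 and 10 in Oxali, Cispl and Oxali + IFNγ at equal ranks, where lost regions touched 17, 13 and 11. In gene bodies alone, gains were 5, 8, 8 and 8 over the 4 treatments, and losses 2 in Oxali, 6 in IFNγ and 1 in Oxali + IFNγ. With an overlap of 50%, 8 keratins had losses in Oxali. Fewer regions enter at a stricter threshold or in gene bodies by construction. The shares of all genes were not computed at any of these settings.

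The shares of all regions raised or lowered were not computed at the settings that follow. Raised and lowered keratin regions without subtracting the median of all regions numbered 36 and 17 in Oxali, 34 and 21 in Cispl, 13 and 17 in IFNγ and 50 and 19 in Oxali + IFNγ. At 2-fold they numbered 8 and 19, 8 and 22, 8 and 6, and 11 and 24, with 8 and 9 for Oxali against Cispl and 3 and 3 for Oxali + IFNγ against Oxali. In gene bodies they were 8 and 22 in Oxali, 7 and 24 in Cispl, 10 and 21 in Oxali + IFNγ, 8 and 10 for Oxali against Cispl and 10 and 3 for Oxali + IFNγ against Oxali, and 4 were lowered in IFNγ. With regions called in both lists only, 25, 24, 4 and 21 were lowered over the 4 treatments and 10 were raised in IFNγ. In the same setting 10 were lowered in Oxali against Cispl, 7 were raised and 4 lowered in Oxali + IFNγ against Oxali, and the median log2 change in Oxali + IFNγ was 0.042. With the deposited fold, 9 were raised and 11 lowered in Oxali against Cispl, and the median log2 change was -0.20 in IFNγ and 0.035 in Oxali + IFNγ against Oxali. With regions strong in any of the 5 lists, a setting chosen after seeing the data, as were the classes of control level, 33 were raised and 22 lowered in Oxali, 25 raised in Cispl, and 9 raised and 23 lowered in IFNγ, where the median was 0.11.

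On the deposited fold the relative log2 change turned sign at Krt6a in Oxali (-0.45) and Oxali + IFNγ (-0.71), at Krt16 in Oxali (-0.096), Cispl (-0.026) and Oxali + IFNγ (-0.043), and at Krt5 in Oxali (-0.029) and Oxali + IFNγ (-0.0020). It also turned in IFNγ at Krt8 (-0.092), Krt7 (-0.049) and Krt17 (-0.083), and in Oxali at Krt6b (0.035). Without subtracting the median of all regions it turned in Oxali at Krt18 (0.20), Krt7 (0.07), Krt6b (0.36) and Krt17 (0.20), in Cispl at Krt5 (0.16) and Krt17 (0.02), in IFNγ at Krt8 (-0.10) and Krt7 (-0.24), and in Oxali + IFNγ at Krt6b (0.16) and Krt17 (0.08). The local background that the deposited fold divides by was higher at Krt6a, Krt16 and Krt5 in the oxaliplatin lists than in Ctrl.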
